A study of Mus musculus with 4 samples.

Results

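The genes described here encode laminins, nidogens, agrin and integrins, the proteins that build the basement membrane and the receptors that hold cells to it. They were chosen by the gene name printed on the array: every non-control spot named for a laminin alpha, beta or gamma chain, for an integrin alpha or beta subunit other than the platelet subunit Itga2b, or for Nid1, Nid2, Hspg2 or Agrn. The names took 101 of 43379 spots, which are 83 of 41174 probes and 38 of 27583 gene names. The names Hspg2, the perlecan gene, and Itgad matched no spot read here. The members were 11 laminin chains, 2 nidogens, agrin and 24 integrin subunits.

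Fgf8 hypomorph lungs, written Fgf8H/- in the labels, were set against lungs of wild type littermates, written Fgf8+/+, at embryonic stage E18.5. Both genotypes had the strain background c57nl7/sv129. Fgf8 is a secreted fibroblast growth factor, and a hypomorph carries an allele of reduced activity. The titles name the mutant AP/N, letters that the sources used here leave unexplained. Each pool held the lobes of 3 lungs, freed of the large airways and vessels, and each of 4 two-colour Agilent arrays held 1 hypomorph pool in Cy5 and 1 wild type pool in Cy3. The study's design text calls the 4 arrays biological repeats, so the spread between arrays includes that between pools. The allele was not limited to the lung as far as the labels say, and the pools were whole lobes of mixed cell types. Fewer cells of a type and less RNA per cell therefore cannot be told apart.

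A basement membrane is a thin sheet of matrix under epithelium and endothelium and around muscle cells. Laminins are trimers of an alpha, a beta and a gamma chain that join into a network at the cell surface. Nidogens tie that network to type IV collagen, and agrin is a heparan sulphate proteoglycan of the same sheet. Integrins are pairs of an alpha and a beta subunit that span the plasma membrane, bind laminins, collagens, fibronectin or other ligands outside the cell and link them to the actin cytoskeleton or, for Itgb4, to keratin filaments. In the developing lung, laminins lie under the airway and alveolar epithelium, around vessels and around smooth muscle, and Itga3, Itga8 and Itgb1 have known roles in lung branching or the shape of the lobes in mice.

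Between 32731 and 34519 spots per array were well above background in the hypomorph channel and between 32491 and 33744 in the wild type channel. The arrays shared 1 slide and 1 scan. No array had its dyes exchanged, so a dye effect and the genotype cannot be told apart for any probe. Spike-in controls gave slopes of 0.69 to 0.718 of measured against designed log ratio, so all ratios here are compressed. Precision is limited by there being 4 arrays. The tested Fgf8 probe had log2 ratios of hypomorph over wild type of -0.31, -0.23, -0.09 and -0.09 on arrays 1 to 4, which did not pass the test (adjusted p = 0.0571, limma). Lung identity markers were measured at high signal, and of 7 measured epithelial markers 2, Nkx2-1 and Cdh1, were higher in hypomorph pools and none was lower. Of 6 markers of alveolar type 1 epithelium, 2, Aqp5 and Rtkn2, were lower and none was higher. Summed signals of the 5 with values on all arrays, which leave out Ager, were 181557 to 189766 in hypomorph pools and 186876 to 204596 in wild type pools.

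The start regions are printed for 4 genes chosen from the 13 that were lower in hypomorph pools by their brightest probe with loess. Whether these 4 share any regulation was not tested. Of the 38 member genes, 24 had a window in RefSeq's promoter table (build GRCm38.p6), each running from 250 bases before the annotated start to 50 after it. The windows of Itga11 (chr9:62677605-62677904, plus strand), Itga1 (chr13:115101915-115102214, minus strand), Lama2 (chr10:27616893-27617192, minus strand) and Itgb6 (the first of its 2 windows, chr2:60722554-60722853, minus strand) are printed 5′ to 3′ along the gene. Capitals mark every match, on either strand, to 1 of 6 motifs: the GC box GGGCGG, the TATA box TATAAA, the AP-1 site TGANTCA, the E-box CACGTG, the TEAD site CATTCC and the ETS site GGAAGT.
Itga11: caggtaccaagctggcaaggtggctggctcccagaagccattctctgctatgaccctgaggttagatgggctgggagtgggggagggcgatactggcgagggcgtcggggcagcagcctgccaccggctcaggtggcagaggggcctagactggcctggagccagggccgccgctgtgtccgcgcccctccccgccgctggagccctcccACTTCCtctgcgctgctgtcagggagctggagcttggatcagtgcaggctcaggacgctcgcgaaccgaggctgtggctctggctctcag
Itga1: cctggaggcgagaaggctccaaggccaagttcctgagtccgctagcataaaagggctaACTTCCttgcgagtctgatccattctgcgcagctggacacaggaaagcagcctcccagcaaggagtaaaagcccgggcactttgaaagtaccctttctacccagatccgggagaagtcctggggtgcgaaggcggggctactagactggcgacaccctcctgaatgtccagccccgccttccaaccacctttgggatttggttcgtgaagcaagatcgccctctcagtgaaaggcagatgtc
Lama2: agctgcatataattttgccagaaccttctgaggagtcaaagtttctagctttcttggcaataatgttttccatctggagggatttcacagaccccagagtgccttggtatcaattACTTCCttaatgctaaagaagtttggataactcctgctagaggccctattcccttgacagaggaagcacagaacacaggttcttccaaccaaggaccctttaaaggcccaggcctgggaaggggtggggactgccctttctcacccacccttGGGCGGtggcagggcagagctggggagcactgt
Itgb6: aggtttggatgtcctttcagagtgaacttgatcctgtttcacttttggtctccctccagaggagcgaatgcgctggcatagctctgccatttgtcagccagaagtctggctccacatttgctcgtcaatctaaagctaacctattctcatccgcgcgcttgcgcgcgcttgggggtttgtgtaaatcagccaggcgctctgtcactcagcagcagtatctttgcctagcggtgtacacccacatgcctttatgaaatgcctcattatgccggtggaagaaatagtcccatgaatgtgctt

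Itga11, Itga1 and Lama2 each held 1 ETS match, in the strand's reverse form, starting 40, 192 and 135 bases before the annotated start. Lama2 also held 1 GC box, within the 50 bases after the start. The printed Itgb6 window held no match to any of the 6, and its second window, of 38.3% G and C, held 2 ETS matches. Over all 32851 windows, the ETS letters were present in 23.8%, the GC box in 35.7%, the TATA box in 13.6%, the AP-1 site in 7.81%, the E-box in 7.15% and the TEAD site in 14.7%. The windows differed in base composition, from 68% G and C for Itga11 to 56.7% for Itga1 and 50.3% each for Lama2 and the printed Itgb6 window, against a median of 52.7% over all windows. A match is a description of letters only, and none of these sites was measured here.

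Log2 ratios are of hypomorph over wild type throughout, so a negative ratio means less signal in hypomorph pools. A probe is called lower or higher when limma's moderated test over the 4 arrays gave a Benjamini-Hochberg adjusted p under 0.05 over all 29950 probes tested. Of the 83 member probes, 72 passed the filter on dim signals and were tested. Among them 23 were lower and 5 higher in hypomorph pools, and 44 were not called. That is 38.9% called, against 24.9% of all probes (12.2% lower and 12.7% higher). The median ratio was -0.13 over the member probes and -0.005 over all probes. Taken by each gene's brightest tested probe, 13 of 38 member genes were lower and 3 higher, against 13.2% lower and 13.8% higher of all 19934 genes, with 27% called in either direction. The median was -0.11 over the member genes and -0.003 over all genes. These counts hold for ratios normalized by loess, which sets probes of every brightness to a centre near 0. With each array's ratios centred only on their median, 3 member genes were lower and 18 higher, while 49.4% of all probes were called and 25.7% of those calls were lower. Signals of the hypomorph pools lay wholly below those of the wild type pools for 17 of the 72 tested member probes, against 8.43% of all probes, and wholly above for 3, so 20 did not overlap, which is 27.8% against 15.5% of all probes.

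The number of calls depended on which arrays were used. Without array 2 the lower member probes numbered 4 and the higher 1, with 5.92% of all probes called. Without array 3 they numbered 9 and 2 (8.5% of all), without array 4, 13 and 3 (16.9%), and without array 1, 27 and 4 (27.8%). Of the 28 called member probes, 7 stayed called in every leave-one-out fit in which they could be tested. Among these 7, Itgb2 and a Lama2 probe had only the fit without array 1, where they had no value, so none of their values was removed. Loss of a call went with fewer calls over all probes, and the mean ratios of the called members kept their sign without each array. With the scanner software's processed signals in place of loess, 5543 of the 29950 probes were called, and the brightest probes of Itga6, Itgav, Itgb2, Itgax, Itga8 and Lama1 were no longer called (adjusted p = 0.0572, 0.0629, 0.0631, 0.0693, 0.097 and 0.0998).

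**Figure D1:**
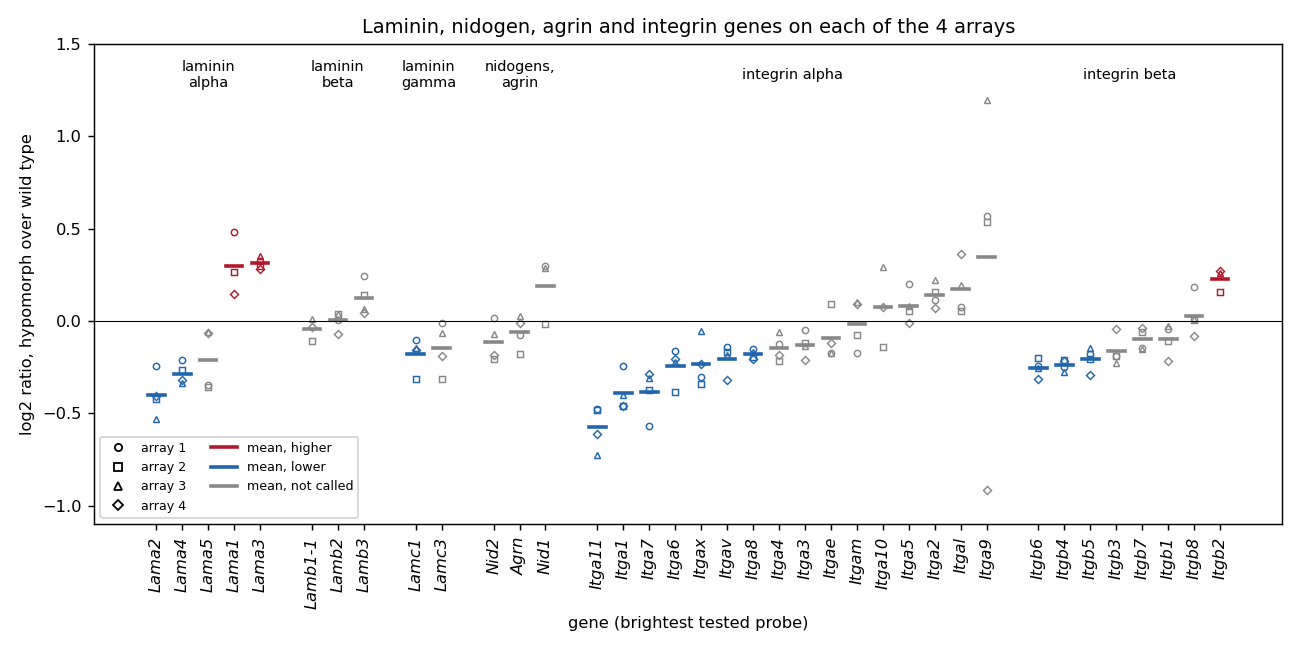
Log2 ratio of hypomorph over wild type (vertical axis) of the brightest tested probe of each member gene reported, grouped by role, with 1 open symbol per array and a bar at the mean, coloured by call. The bars of the 13 lower genes lie between -0.57 (Itga11) and -0.18, those of the 3 higher genes between 0.23 and 0.31, and Itga9 has 3 arrays above 0.5 and array 4 at -0.92; with median centring in place of loess the bars of bright genes such as Lamc1 and Itgb5 lie above 0.

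Among the laminin alpha chains, the chains of muscle and of mesenchymal and endothelial membranes were lower in hypomorph pools with loess, and an epithelial chain was higher. Lama2 and Lama4 were lower by their brightest probe, Lama3 and Lama1 were higher, and Lama5 was not called. Lama2 is the alpha chain of muscle and nerve basement membranes and is mutated in a congenital muscular dystrophy. Its brightest probe (mm8 chr10:26673839-26673898) read 11.1, 10.91, 11.26 and 11.42 on the log2 signal scale in hypomorph pools, against 11.35, 11.33, 11.79 and 11.83 in wild type pools of arrays 1 to 4. Hypomorph pools were below the wild type pool of the same array on 4 of 4 arrays, although the groups overlapped because arrays differed in level. The mean log2 ratio was -0.40 ± 0.12 (SD, n = 4, adjusted p = 0.00721 by limma), or 1.32-fold lower, with arrays between -0.53 and -0.24. A further Lama2 probe gave -0.41 ± 0.07 (n = 3, adjusted p = 0.0087), and the remaining one, aimed far upstream, was at background in both genotypes. Without array 2 the brightest probe's adjusted p was 0.0513, and with median centring its ratio was -0.19 (adjusted p = 0.0808) and that of the further probe -0.26 (adjusted p = 0.0213).

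Lama4 is the alpha chain of vascular and mesenchymal basement membranes. Its brightest probe (mm8 chr10:38795404-38795463) read 13.88, 13.87, 14.06 and 13.97 in hypomorph pools, against 14.1, 14.13, 14.4 and 14.29 in wild type pools. Hypomorph pools all lay below wild type pools, and the mean log2 ratio was -0.28 ± 0.06 (SD, n = 4, adjusted p = 0.00875), or 1.22-fold lower. Of its other 3 probes, 2 were lower, at -0.21 ± 0.04 and -0.22 ± 0.13, and the dimmest, at -0.29 ± 0.24, was not called. All 4 Lama4 probes thus had a negative mean with loess, but median centring turned the ratios of the 3 called probes to 0.11, 0.13 and 0.05, none of which passed the test. Leaving out array 2 or 3 also ended the call of the brightest probe (adjusted p = 0.0543 and 0.0513), and the other 2 called probes were lost without array 2, 3 or 4 (adjusted p between 0.0591 and 0.147). Of 7 endothelial markers, 3 were lower (Kdr, Cdh5 and Esam) and 1 higher (Tek). The summed signal of the 5 with values on all arrays ran from 90229 to 104806 in hypomorph pools and from 112857 to 117428 in wild type pools. That sum leaves out Emcn, the brightest of the list (-0.083), and Tie1 (0.129), neither of which was called. The part of endothelial cells in the Lama4 ratio was not tested.

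Lama3, the alpha chain of the laminin that anchors epithelium to its basement membrane, had the most even ratio of the called alpha chains. Its brightest probe read 13.3, 13.19, 13.43 and 13.42 in hypomorph pools, against 12.97, 12.89, 13.08 and 13.14 in wild type pools. Every hypomorph pool was above every wild type pool, with a mean log2 ratio of 0.31 ± 0.03 (SD, n = 4, adjusted p = 0.00571), or 1.24-fold higher. The call held without each array (adjusted p up to 0.0428). With median centring the ratio was 0.61, against a median of 0.26 over all probes with a log2 brightness of 12 to 14. A second Lama3 probe, nearer the gene's start and much dimmer, gave -0.13 ± 0.06 and was not called (adjusted p = 0.0694), so the probes of this gene did not give the same sign. The summed signal of the 5 epithelial markers with values on all arrays ran from 121096 to 142912 in hypomorph pools and from 118248 to 134052 in wild type pools. That sum leaves out Krt18, the brightest of the list (-0.101), and Sftpb (0.124), neither of which was called. The part of these markers in the Lama3 ratio was not tested. Lamb3, a beta chain that pairs with Lama3, had a ratio of 0.12 ± 0.09 and was not called (adjusted p = 0.116). Of 18 other settings it passed as higher only with median centring (0.38, adjusted p = 0.00231), which raised the median of all probes as bright, as given for Lama3.

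Lama1, the chain of early embryonic membranes, had dim probes. Its brightest tested probe, with values on 3 arrays, gave 0.30 ± 0.17 (adjusted p = 0.0461), and its second probe gave 0.20 ± 0.16 (adjusted p = 0.0827), or 0.55 with the processed signals (adjusted p = 0.0423). In the fit without array 3, where it had no value, its adjusted p was 0.0768, and it was called under 5 of the 11 other settings with all arrays and loess or the scanner software's scaling. Lama5, the main alpha chain of lung epithelial and vascular membranes, read 15.55, 15.49, 15.63 and 15.68 in hypomorph pools, against 15.89, 15.85, 15.69 and 15.74 in wild type pools. The groups did not overlap, but the gap was wide on arrays 1 and 2 and narrow on arrays 3 and 4, and the ratio of -0.21 ± 0.17 was not called (adjusted p = 0.0722). It was called lower at a loess span of 0.1 (-0.32, adjusted p = 0.0268), from the processed signals (-0.32, adjusted p = 0.0443) and with the channels fitted separately (-0.21, adjusted p = 0.0233). Centred on the median, the Lama5 ratio was 0.42 and passed the test, so its direction depends on the scaling.

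Of the beta and gamma chains, which most laminins share, only Lamc1 was called. Lamc1, the gamma chain of most trimers, gave -0.18 ± 0.09 (n = 4, adjusted p = 0.0464) with 4 arrays below 0. A narrower loess span, 0.1, gave Lamc1 -0.32 (adjusted p = 0.0123), and the processed signals also gave -0.32 (adjusted p = 0.0287), both still called. The call was lost with a normexp offset of 16 or no filter on dim probes (adjusted p = 0.0506 and 0.0518) and without array 2, 3 or 4 (adjusted p = 0.162, 0.122 and 0.0987). With median centring the ratio was 0.47, which passed the test in the other direction. Lamb1-1, the array's name for Lamb1, had a ratio of -0.04 ± 0.06 on 3 arrays, which median centring turned to 0.47, and Lamb2 had 0.00 ± 0.05. Of 18 other settings, Lamb2 passed the test as higher only with median centring (0.36, adjusted p = 0.00146). Lamc3, a chain of nerve and retina membranes, was dim, with -0.15 ± 0.14 and -0.07 ± 0.15 at its tested probes, of which the second was called with the processed signals (-0.34, adjusted p = 0.021). Of the linkers, Nid1 had 0.19 ± 0.18 on 3 arrays (adjusted p = 0.143), Nid2 had -0.11 ± 0.10 (adjusted p = 0.161) and Agrn had -0.06 ± 0.09 at the dim probe that could be tested (adjusted p = 0.403), so none of these 3 was called with loess. A far brighter Agrn probe, aimed at the RefSeq transcript, had a value on array 1 only (0.44) and could not be tested, so the direction of Agrn is not settled. Nid1 had 0.03 with a loess span of 0.1 and 0.04 with the processed signals, neither of which passed the test. Median centring gave 0.87 for Nid1 (adjusted p = 0.000104) and 0.23 for Nid2 (adjusted p = 0.0322), both called higher, and -0.12 for Agrn, which was not called.

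**Figure D2:**
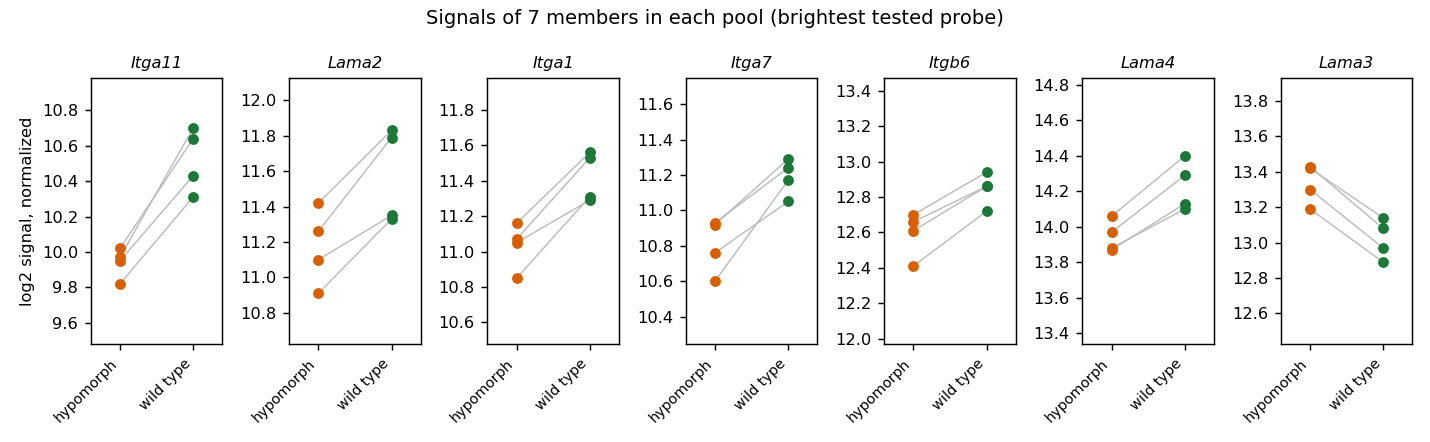
Normalized log2 signal (vertical axis, each panel spanning the same range of log2 units) of 7 members' brightest tested probes in the 4 hypomorph pools and the 4 wild type pools, with grey lines joining the pools of 1 array. Hypomorph pools lie below wild type pools for Itga11, Lama2, Itga1, Itga7, Itgb6 and Lama4 on every array and above for Lama3, and only the Lama2 groups overlap; with median centring in place of loess the Itgb6 and Lama4 probes shown have ratios of 0.01 and 0.11.

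Among the collagen-binding integrins, which pair an alpha subunit with Itgb1, Itga11 and Itga1 were lower and Itga2 and Itga10 were not called by their brightest probes. Itga11, the collagen receptor of fibroblasts, had the lowest ratio of the member genes by brightest probe. Its probe (mm8 chr9:62581866-62581925) read 9.95, 9.82, 9.97 and 10.02 in hypomorph pools, against 10.43, 10.31, 10.7 and 10.64 in wild type pools. All hypomorph pools lay below all wild type pools, with a mean log2 ratio of -0.57 ± 0.12 (SD, n = 4, adjusted p = 0.00292), or 1.49-fold lower. The ratios on the arrays ran from -0.72 to -0.48. The call held without each array (adjusted p up to 0.0257), under the 13 other settings that kept the 4 arrays and loess or the scanner software's scaling, and with median centring, where the ratio was -0.41 (adjusted p = 0.00148).

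Itga1, the receptor for type IV and other collagens on smooth muscle, endothelial and mesenchymal cells, was lower at all 3 of its probes. The brightest (mm8 chr13:116087435-116089089, spanning an intron) read 11.05, 10.85, 11.16 and 11.07 in hypomorph pools, against 11.29, 11.31, 11.56 and 11.53 in wild type pools. Every hypomorph pool was below every wild type pool, and the mean log2 ratio was -0.39 ± 0.10 (SD, n = 4, adjusted p = 0.00641), or 1.31-fold lower. The other probes gave -0.35 ± 0.11 and -0.44 ± 0.17. The brightest probe stayed called without each array, whereas the other 2 were lost without array 2 (adjusted p = 0.0518 and 0.061). Centring on the median gave ratios of -0.18, -0.16 and -0.35, of which only the last passed the test (adjusted p = 0.00236).

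Itga2, the collagen receptor of epithelial cells and platelets, gave 0.14 ± 0.06 at its brightest probe (adjusted p = 0.0646) and 0.21 ± 0.02 at a dimmer one, which was called higher (adjusted p = 0.0162). That call was lost without array 2, 3 or 4 (adjusted p = 0.079, 0.07 and 0.0515). Itga10, the collagen receptor of cartilage, had 0.08 ± 0.22 on 3 arrays. Their partner Itgb1, the beta subunit of most integrins listed here, had -0.10 ± 0.09 and was not called (adjusted p = 0.179), and with median centring it had 0.34 and passed the test. A dim Itgb1 probe aimed at another cDNA was well above background on 3 arrays in wild type pools and on none in hypomorph pools, which bounds its signal as at least 1.07-fold lower in hypomorph pools, a difference that did not pass the test (adjusted p = 0.0652). With the processed signals the ratio of that probe was -0.84 and passed it (adjusted p = 0.0136). Another Itgb1 probe, brighter and aimed at the RefSeq transcript, had values on arrays 1 and 3 only, 0.185 and 0.188, and could not be tested. The Itgb1 probes thus did not all have 1 sign.

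Among the laminin-binding integrins, Itga7, Itga6 and Itgb4 were lower and Itga3 was not called. Itga7, the laminin receptor of muscle cells, was lower at both probes. Its brightest probe (mm8 chr10:128360883-128360941) read 10.6, 10.92, 10.93 and 10.76 in hypomorph pools, against 11.17, 11.29, 11.24 and 11.05 in wild type pools. The groups did not overlap, and the mean log2 ratio was -0.39 ± 0.13 (SD, n = 4, adjusted p = 0.0088), or 1.31-fold lower. The second probe gave -0.32 ± 0.03 and stayed called without each array, whereas the brightest was lost without array 2 (adjusted p = 0.0553). The brightest kept its call under median centring at -0.19 (adjusted p = 0.0374) and the second did not, at -0.13 (adjusted p = 0.122). Itga7 and Lama2, receptor and ligand in muscle basement membranes, were thus both lower, and 1 of 6 smooth muscle markers was lower (Tagln, -0.32) and 1 higher (Myh11, 0.18). The summed signal of the 6 ran from 65211 to 83881 in hypomorph pools and from 62595 to 85181 in wild type pools. The skeletal muscle list had 1 of 5 markers lower and none higher, with sums of 1620 to 1958 in hypomorph pools and 1547 to 2593 in wild type pools. Their part in the Itga7 and Lama2 ratios was not tested.

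Itgb4, which pairs with Itga6 in the hemidesmosomes of epithelial cells, read 11.35, 11.45, 11.58 and 11.6 in hypomorph pools, against 11.6, 11.67, 11.86 and 11.82 in wild type pools at its brightest probe (mm8 chr11:115824323-115824382). The groups met at 11.6, and the mean log2 ratio was -0.24 ± 0.03 (SD, n = 4, adjusted p = 0.0115), or 1.18-fold lower. A probe overlapping it by all but a few bases gave -0.20 ± 0.04. The calls were lost without array 2 or 3 (adjusted p = 0.0627 and 0.0637 for the brightest, 0.0791 and 0.0891 for the other), and that of the other also without array 4 (adjusted p = 0.0537). Under median centring the 2 Itgb4 probes had ratios of -0.02 and 0.02, neither of which passed the test.

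Itga6, the laminin receptor of epithelium and endothelium, gave 3 different readings. Its brightest probe (mm8 chr2:71658755-71658814) read 14.54, 14.4, 14.7 and 14.65 in hypomorph pools, against 14.7, 14.79, 14.92 and 14.86 in wild type pools. The ratio was negative on 4 of 4 arrays, with a mean of -0.25 ± 0.10 (SD, n = 4, adjusted p = 0.021). A probe to the RefSeq transcript gave -0.01 ± 0.04 and was not called (adjusted p = 0.839). The dimmest, aimed at another cDNA, gave -0.74 ± 0.47 (adjusted p = 0.0255), with -1.41 on array 1 and -0.38 on array 4. The brightest probe was lost without array 2, 3 or 4 (adjusted p = 0.0891, 0.0768 and 0.0544) and the dimmest without array 2 or 3 (adjusted p = 0.101 and 0.0595). Under median centring the 3 Itga6 probes had 0.23, 0.28 and -0.56, each past the test, so the direction of Itga6 depends on the probe and on the scaling. Itga3, the laminin receptor of epithelium and of kidney and lung development, had -0.13 ± 0.07 at its brightest probe (adjusted p = 0.082) and -0.05 ± 0.05 and -0.11 ± 0.13 at the others.

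Among the receptors for fibronectin, vitronectin and other ligands with an RGD motif, Itgav, Itgb5, Itgb6 and Itga8 were lower with loess, and Itga5 and Itgb8 were not called. Itgb6, an epithelial subunit that with Itgav activates latent TGF-beta, was lower at all 3 of its probes. The brightest (mm8 chr2:60399318-60399377) read 12.7, 12.66, 12.61 and 12.41 in hypomorph pools, against 12.94, 12.86, 12.86 and 12.72 in wild type pools. Again the groups were separate, and the mean log2 ratio was -0.25 ± 0.05 (SD, n = 4, adjusted p = 0.0111), or 1.19-fold lower. The second probe (mm8 chr2:60401414-60406029) gave -0.42 ± 0.07 (adjusted p = 0.00369) and the dimmest, near the start of the gene, gave -0.26 ± 0.03 (adjusted p = 0.009). The second stayed called without each array, whereas the other 2 were lost without array 2 or 3 (adjusted p between 0.0517 and 0.0572). Under median centring the second and the dimmest probes kept their calls, at -0.23 and -0.27, but the brightest turned to 0.01.

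Itgav, the alpha subunit that Itgb3, Itgb5, Itgb6 and Itgb8 share, had 5 tested probes with negative means, of which the brightest was lower. That probe (mm8 chr2:83606815-83606874) read 12.16, 12.02, 12.07 and 12.06 in hypomorph pools, against 12.31, 12.19, 12.26 and 12.39 in wild type pools. The groups did not overlap, and the mean log2 ratio was -0.20 ± 0.08 (SD, n = 4, adjusted p = 0.0291). The other 4 probes ran from -0.43 ± 0.42 to -0.18 ± 0.13 and were not called. The call was lost without array 2, 3 or 4 (adjusted p = 0.102, 0.0962 and 0.0794). Under median centring the brightest Itgav probe had 0.04 and was not called, while 3 of the dimmer ones, at -0.36, -0.34 and -0.32, passed the test.

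Itgb5, a partner of Itgav in many cell types, read 14.96, 14.84, 15.16 and 15.12 in hypomorph pools, against 15.14, 15.05, 15.3 and 15.42 in wild type pools (mm8 chr16:33868784-33868843). The groups overlapped, but the hypomorph pool was below the wild type pool of its own array on 4 of 4 arrays, with a mean log2 ratio of -0.21 ± 0.06 (SD, n = 4, adjusted p = 0.023). Itga8, the nephronectin receptor of lung mesenchyme, gave -0.18 ± 0.02 at its brightest probe (adjusted p = 0.0244), -0.17 ± 0.02 on 3 arrays at an adjacent probe (adjusted p = 0.0628) and 0.07 ± 0.14 at a dim one. Both calls were lost without array 2, 3 or 4 (adjusted p = 0.1, 0.0707 and 0.0697 for Itgb5, and 0.107, 0.0932 and 0.0722 for Itga8). Centred on the median, Itgb5 had 0.33 and Itga8 0.25, both past the test in the other direction. Itga5, the main fibronectin receptor subunit, had 0.08 ± 0.09, and Itgb8, which also activates TGF-beta with Itgav, had 0.03 ± 0.11 at a dim probe.

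Itgb3, the partner of Itgav on endothelial cells and of Itga2b on platelets, gave opposite readings from 2 probes. The brightest (mm8 chr11:104486448-104486507, another cDNA) had -0.16 ± 0.08 and was not called (adjusted p = 0.0535), although it was called lower under 5 other settings (adjusted p between 0.0297 and 0.0486). The other (mm8 chr11:104483266-104483336, the RefSeq transcript) read 10.87, 10.48, 10.92 and 10.64 in hypomorph pools, against 10.65, 9.92, 10.05 and 10.22 in wild type pools. Its ratio was positive on 4 of 4 arrays, from 0.21 to 0.87, with a mean of 0.52 ± 0.28 (SD, n = 4, adjusted p = 0.0184), and without array 2 its adjusted p was 0.0902. Median centring gave 0.05 and 0.69, and only the second probe passed the test. Of 7 platelet and megakaryocyte markers, 4 were lower and none was higher. Summed signals of the 6 with values on all arrays, which leave out Gp6, were 9317 to 14149 in hypomorph pools and 11141 to 16059 in wild type pools. The part of these markers in either reading was not tested.

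Itga9, a receptor for tenascin and lymphatic valve fibronectin, varied more than any other called or uncalled member gene by its brightest probe. It read 12.91, 12.73, 13.61 and 11.84 in hypomorph pools, against 12.34, 12.2, 12.41 and 12.76 in wild type pools. Hypomorph pools 1 and 3 were above every wild type pool, hypomorph pool 2 was above all but that of array 4, and hypomorph pool 4 was below them all. The log2 ratios were 0.57, 0.54, 1.2 and -0.92, with a mean of 0.35 ± 0.90 that was not called (adjusted p = 0.437). Without array 4 the mean was 0.77 and passed the test (adjusted p = 0.0313). With median centring of all 4 arrays it was 0.61 and also passed (adjusted p = 0.044), so the call depends on array 4 and on the scaling. Itga4, which pairs with Itgb1 or Itgb7 and binds Vcam1 and fibronectin, had 5 tested probes between -0.21 and 0.04, and none was called.

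Of the leukocyte integrins, Itgb2 was higher, Itgax was lower, and Itgal, Itgam, Itgae and Itgb7 were not called. Itgb2, the beta subunit shared by Itgal, Itgam and Itgax, had values on 3 arrays and read 10.87, 10.92 and 10.79 in hypomorph pools 2 to 4, against 10.71, 10.66 and 10.52 in wild type pools 2 to 4. The groups did not overlap, and the mean log2 ratio was 0.23 ± 0.06 (SD, n = 3, adjusted p = 0.0365), or 1.17-fold higher. That call was lost with the processed signals and with the deposited table of the same values (0.25, adjusted p = 0.0631). Itgax, found on dendritic cells and lung macrophages, read 8.55, 8.51, 8.55 and 8.48 in hypomorph pools, against 8.85, 8.85, 8.6 and 8.71 in wild type pools. All hypomorph pools lay below all wild type pools, with a mean of -0.23 ± 0.13 (SD, n = 4, adjusted p = 0.035), lost without array 1, 2 or 4 (adjusted p = 0.052, 0.141 and 0.0888) and with median centring (-0.17, adjusted p = 0.0613). A dimmer Itgax probe had 0.04 ± 0.12.

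None of the alpha subunits that pair with Itgb2 was called higher. Itgal, the subunit of lymphocytes, had 0.17 ± 0.14 and -0.02 ± 0.04 at its probes, and Itgam, of macrophages and neutrophils, had -0.02 ± 0.13 and 0.05 ± 0.05. Of 18 other settings, the brightest Itgal probe passed the test as higher only with median centring (0.38, adjusted p = 0.00159). All probes with a log2 brightness of 10 to 12 had a median of 0.19 there. Itgae, of epithelial T cells, had -0.09 ± 0.13, and Itgb7, its partner, had -0.10 ± 0.06. Of 6 markers of leukocytes in general, 2 were higher and none lower, with summed signals of 35077 to 36295 in hypomorph pools and 30893 to 33967 in wild type pools. The 2 higher markers, Coro1a (0.305) and Lcp1 (0.149), are the brightest of the 6. Ptprc (-0.302), Cd53 (0.034), Laptm5 (0.073) and Tyrobp (0.096) were not called. Of 7 macrophage markers, 4 were lower (C1qa, C1qb, C1qc and Marco) and none higher, with sums of 15348 to 16845 in hypomorph pools and 17422 to 19741 in wild type pools. Both sums separated the genotypes, in opposite directions, beside Itgb2 and Itgax, and their part in those ratios was not tested.

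Probes of 1 gene gave a measure of how far a ratio depends on where it was read. Of the 21 member genes with several tested probes, 14 had probes of 1 sign and 7 had probes of both signs. All tested probes were called for 5 genes, Itga1, Itga7, Itgb4, Itgb6 and Lama2, and in each of the 5 all were lower with loess, although median centring put an Itgb4 and an Itgb6 probe at 0.02 and 0.01. The median gap between the highest and the lowest probe of a gene was 0.09 in log2. The widest gaps were those of Itga6 (0.72), Itgb3 (0.68) and Lama3 (0.45), where a called probe stood beside an uncalled one or one of the other sign.

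**Figure D3:**
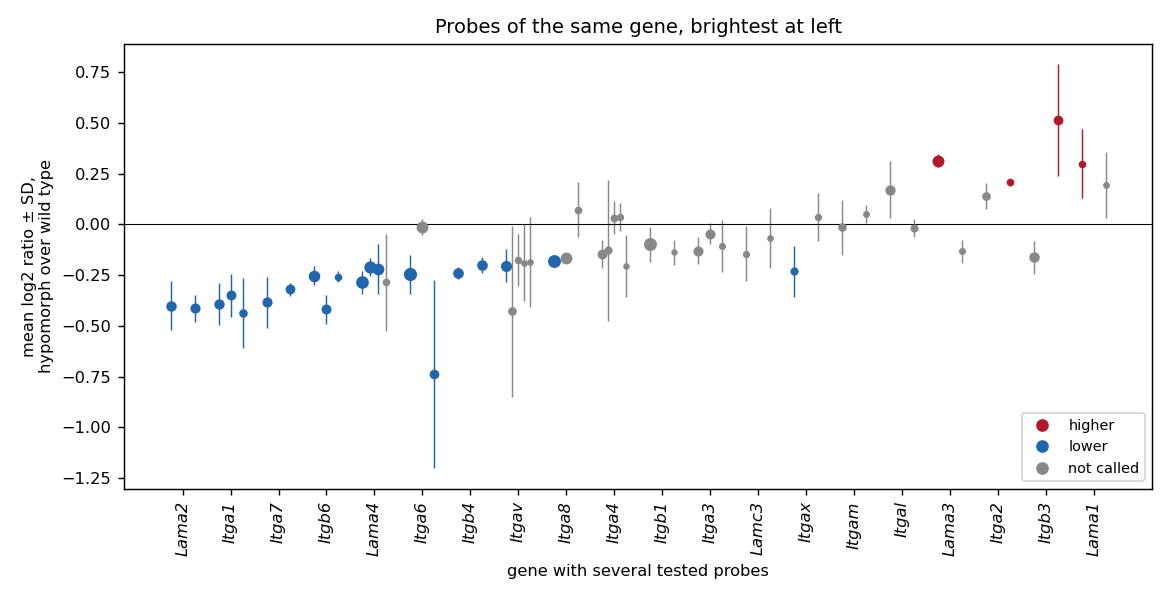
Mean log2 ratio of hypomorph over wild type with its SD over the arrays (vertical axis) for every tested probe of the reported member genes with several tested probes, each gene's brightest probe at left and larger points for brighter probes, coloured by call. Probes of Lama2, Itga1, Itga7 and Itgb6 lie together below 0, whereas those of Itga6, Itgb3 and Lama3 lie far apart; with median centring in place of loess the brightest Itgb6 probe lies at 0.01.

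Probes were aimed at RefSeq transcripts or at other cDNAs. Apart from the readings given above for single genes such as Itga6 and Itgb3, these were not compared within a gene. The 20 tested member probes aimed at cDNAs other than RefSeq transcripts had median ratios of -0.20, -0.17, -0.17 and -0.16 on arrays 1 to 4, against -0.05, -0.12, -0.06 and -0.15 for the 52 aimed at RefSeq transcripts. Over all probes, the 9479 aimed at other cDNAs had medians of -0.12, -0.01, -0.01 and 0.007, against 0.03, 0.006, 0.004 and -0.001 for the 20471 aimed at RefSeq transcripts, so array 1 differs by target across the whole array. Of the member probes aimed at other cDNAs, some stood lowest on array 1, at -1.41 for Itga6, -1.05 for Itgav, -0.64 for Lama4 and -0.60 for Itga4. Without array 1 the Itga6 probe had a mean of -0.52 and was still called (adjusted p = 0.00428). The part of the target in the other ratios was not tested.

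The brightness of a probe mattered for the direction under median centring. Members were spread over the whole range, and of 19 tested member probes with a mean log2 brightness of 10 to 12, 11 were lower and 2 higher, against 14.4% lower and 15.4% higher of all probes as bright. Of the 10 at 14 and above, 5 were lower and none was higher, against 21.6% and 16.3% of all. Of 11 at 12 to 14, 4 were lower and 1 higher (17.2% and 13.6% of all). Of 11 at 8 to 10, 2 were lower and none was higher (11.2% and 13.6%). Under 8, 1 of 21 was lower and 2 were higher (6.13% and 8.32%). Probes of the same gene are counted separately. With median centring, the median over all probes was 0.10, and it ran from -0.12 for probes under a brightness of 8 to 0.08, 0.19, 0.26 and 0.44 in the brighter bands. With loess the same medians lay between -0.03 and 0.01. Against that shift, the median over member probes with median centring was 0.04, below the 0.10 of all probes, with 22 probes higher and 17 lower, while 49.4% of all probes were called. Of all called probes, 25.7% were lower with median centring, against 49.1% with loess.

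Relative to the band's own median, bright members such as Lamc1 (0.47) and Itgb5 (0.33) therefore stood close to or below the 0.44 of all probes of 14 and above. Of the 28 called member probes, 12 kept call and sign with median centring, 6 kept the sign only and 10 turned to a positive ratio. Calls that held both with median centring and without each array numbered 3 where all arrays had values: Itga11, the second Itgb6 probe and Lama3. Median centring put the median of all probes at 0.26 in the band of Lama3 and at 0.19 in that of Itgb2. It thus raised probes as bright as these, so it was a weak check of their higher calls. Itgb2 and the further Lama2 probe kept their calls with median centring, with values on 3 arrays. Their only leave-one-out fit was that without array 1, where they had no value, so it could not test their calls. The Itgb2 call was lost with the processed signals.

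**Figure D4:**
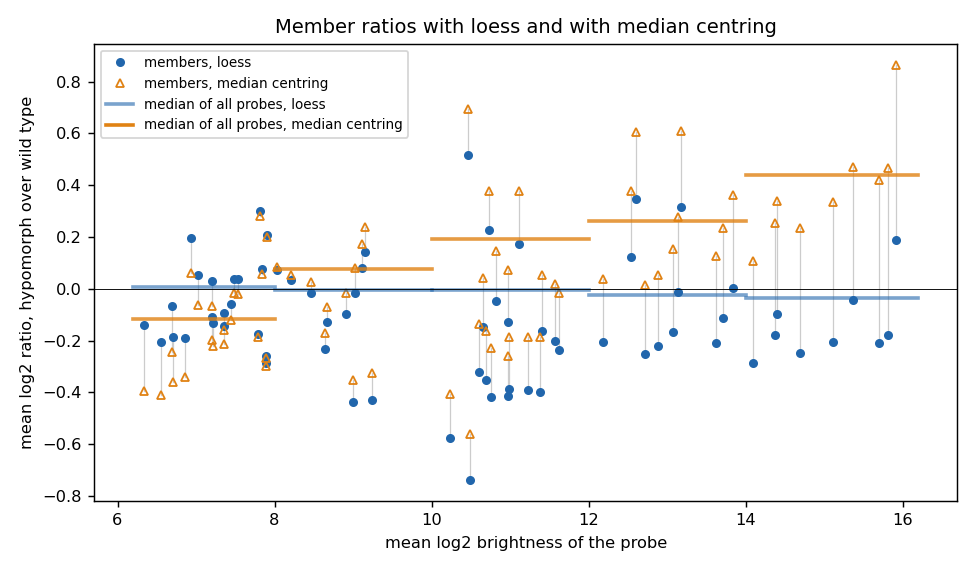
Mean log2 ratio of hypomorph over wild type of the tested probes of the reported members (vertical axis) against mean log2 brightness (horizontal axis), with loess (filled circles) and with median centring (open triangles), joined per probe, and lines at the median of all probes in each brightness band. With median centring the line for all probes climbs from -0.12 under 8 to 0.44 at 14 and above and bright members climb with it, while with loess the line stays near 0 and most members lie below it.

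The partners of these proteins, taken from 3 lists, had similar numbers of lower and higher calls. Of 26 measured genes of other basement membrane and laminin-binding proteins, 4 were lower and 5 higher, with a median of 0.09, against 13.2% lower, 13.8% higher and a median of -0.003 over all genes. Col4a4 and Col4a3, type IV collagen chains of alveolar and glomerular membranes, were lower at -0.57 ± 0.10 (SD, n = 4, adjusted p = 0.00238) and -0.38 ± 0.07 (adjusted p = 0.00479), each at both of its probes in sign. Ntn4, a netrin that binds laminin gamma chains, was lower at -0.45 ± 0.14 (adjusted p = 0.0064). Frem2, a protein of the epithelial basement membrane in which mutations cause Fraser syndrome, was higher at 0.39 ± 0.10 (adjusted p = 0.00616).

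Of 19 measured integrin ligands other than laminins, 5 were lower and 6 higher, with a median of 0.03. Ccn2, a matricellular protein, was lower at -0.76 ± 0.08 (adjusted p = 0.00116). Icam1, the ligand of Itgal with Itgb2, had -0.50 ± 0.04 (adjusted p = 0.00182), and Icam2 had -0.34 ± 0.07 (adjusted p = 0.00616), both lower. Spp1, or osteopontin, a ligand of Itgav and Itga9, was higher at 0.37 ± 0.08 (adjusted p = 0.00566).

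Of 34 measured genes of the adhesion machinery inside the cell, 5 were lower and 6 higher, with a median of 0.009. Lims2, an adaptor that joins integrin-linked kinase, was lower at -0.77 ± 0.05 (SD, n = 4, adjusted p = 0.00113), and Bcar1, a docking protein of focal adhesions, at -0.32 ± 0.08 (adjusted p = 0.00813). Tln1, talin, which activates integrins by binding their beta tails, was higher at its brightest probe, 0.36 ± 0.03 (adjusted p = 0.00387), while its 3 probes ran down to -0.06. Parvg, a parvin of blood cells, was higher at 0.34 ± 0.08 (adjusted p = 0.00687). Of 5 mesothelial markers, whose cells line the lobes and rest on a basement membrane, 4 were lower and none was higher. The 4 with values on all arrays had summed signals of 7362 to 10354 in hypomorph pools and 9472 to 10463 in wild type pools. That sum leaves out Msln, the brightest of the 5, which was lower at -0.651 ± 0.245 (SD, n = 3, adjusted p = 0.0124). It includes Upk3b, which was not called (0.001). The part of these markers in the ratios of the members was not tested.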

How the data were processed

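Total RNA of pooled lungs was measured on 4 two-colour arrays. The submitters' processing notes name Agilent Feature Extraction 9.5.1 as the software that read the scans. The deposited mean and background intensities come straight from the scanner for either channel, per the file headers, and the deposited processed intensities had background subtracted and dyes normalized by that software. The log10 ratio that the authors deposited is processed red divided by processed green. The deposited log2 values of the series table equal the same ratio (correlation 1 on each array, medians between -0.047 and -0.002, no centring), so they are hypomorph over wild type.

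Mean intensities were corrected with normexp (limma 3.58.1, R 4.3.3, offset 50) and normalized by loess (span 0.3, control spots at weight 0). Spots marked as outliers were left out (2136 to 2219 per array), and spots of a probe were averaged. Tested probes had values on 3 or more arrays and, on 3 or more, a signal well above background for either genotype. The mean log2 ratio was tested against 0 with limma and Benjamini-Hochberg adjustment over 29950 probes. A gene is read by its brightest tested probe. Signals of single pools come from each channel once loess and Aquantile scaling were applied. Where 1 genotype never exceeded background clearly at a probe, a lower bound of the fold is given: the mean of the bright genotype over a floor, set on each array at the dim probe's signal or at the lowest well-measured signal if that was larger. It is open to dye bias.

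Members go by the array's names, and listed genes by a RefSeq table of assembly GRCm38.p6 through accessions (24375 of 41174 probes) or synonyms. Probe positions are those of the files (mm8). The values of 1 member gene are not reported here, though it is in the counts. The members, lists and motifs were chosen with earlier results of these data known. Signals of every pool are given for the 12 called genes of largest ratio with 4 arrays of 1 sign, and for Lama5, Itga9, Itgb3 and Itgb2, chosen after their values were seen; other members are given by mean and SD, and up to 4 genes of smallest p per partner list. Of markers, lists for 15 cell types or tissues were summed over probes with values on all arrays.

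The fit was tested on 10 simulated data sets of 27139 probes with 200 changed probes each. Of probes changed 1.25-fold, 32.2% were called, of those changed 1.5-fold, 72.4%, and 92.8% of probes changed 2-fold. False calls made up 3.46%. A far smaller share of probes was changed there than the 24.9% called in the data. The Benjamini-Hochberg cutoff depends on that share, so the recovery rates need not hold for these data. The alternatives were other background corrections, normalizations, filters and models, the deposited table, and leaving out each array.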

Additional observations from a re-analysis of the deposited data

How the results depend on the processing

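Over 18 alternative settings, median centring and leaving out array 2, 3 or 4 moved the member calls most. With median centring, 22 member probes were higher and 17 lower, 18 member genes were higher and 3 lower, and 10994 of all probes were higher. It turned the ratios of Lama5 (0.42), Lamc1 (0.47), Lamb1-1 (0.47), Lama4 (0.11, 0.13 and 0.054), Nid2 (0.23), Itgb1 (0.34), Itgb4 (0.019 at 1 probe), Itgb5 (0.33), Itgb6 (0.013 at 1 probe), Itga6 (0.23 and 0.28), Itga8 (0.25) and Itgav (0.037) from negative to positive. These are 15 probes that passed the test under loess or under median centring, and sign changes where neither passed are not listed. The shift followed brightness over all probes, as given above. Leaving out 1 array gave 1 to 4 higher and 4 to 27 lower member probes, 1 to 2 higher and 2 to 13 lower member genes, and 830 to 3723 higher and 787 to 3878 lower probes in all. The fits with 3 arrays have fewer samples, and those without array 2, 3 or 4 called fewer member probes than that without array 1.

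With the scanner software's processed signals, or with the deposited table of the same values, 1 member gene was higher, and calls were lost for 9 member probes and gained for 4. With signal well above background required in both channels on all arrays, 3 member probes and 1 member gene were higher. With 1 probe per gene tested, 3 member genes were higher and 14 lower. Fitting the channels separately with the array as a block, that is with the pools of an array paired (intraspot correlation 0.714), gave 5 higher and 28 lower of 65 member probes, with 32.4% of all probes called, and kept the call of every called member probe it tested. Under the remaining settings between 64 and 71 of the 72 member probes kept their side of the test. Beyond the median-centred values, no member probe changed sign past the test. Arrays were on 1 slide in 1 scan, so no slide block could be fitted. Dim probes, 21 of the 72 under a log2 brightness of 8, limit what can be read for Lama1, Lamc3, Agrn, Itgae and Itgb8.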
